A study of Citrus sinensis with 30 samples.

Results

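The membrane proton pumps of the juice sacs were described in 2 oranges, the blood orange ‘Tarocco’ (TBO) and the sweet orange ‘Bingtangcheng’ (BTSO). They were taken from the deposited expression table by their annotation, as plasma membrane-type ATPases other than calcium pumps, V-type proton ATPase subunits and vacuolar membrane proton pumps. This gave 15 of 24179 genes, of which 7 were plasma membrane-type ATPases, 7 were V-type subunits and 1 was the pyrophosphate-driven pump of the vacuole. No measured value entered this rule, although the study itself had singled out 1 of the genes, PH8, from these same samples. The study set acid TBO fruit against low-acid BTSO fruit during postharvest storage. Stored fruit were bagged singly in polyethylene and kept in the cold. By the study's account pulp colour was similar before storage, and TBO pulp gained anthocyanin as storage went on. Juice sacs were sampled on 5 days of storage, given as days after storage (DAS): 0, 15, 30, 60 and 90. TBO at each of these days is set here against BTSO at the same day, and within a variety 90 DAS is set against 0 DAS. Each of the 10 groups had 3 libraries, 30 in all. Both varieties were *Citrus sinensis*, all fruit had been picked at maturity, those of 0 DAS had not been stored, and each variety stands for 1 genotype, so a variety difference belongs to these 2 cultivars as bought from 1 station. Juice sacs came from 5 fruit in each group, and the sources call the 3 replicates biological without saying whether they were separate fruit or shared them, so p-values measure only the spread between these libraries. In bulk tissue, fewer cells of a type and less RNA per cell cannot be told apart.

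Proton pumps carry protons across a membrane against their gradient. P-type H+-ATPases are single proteins that use ATP, and most of them work in the plasma membrane, where the gradient drives uptake of sugars, ions and amino acids. A branch of the family works in the vacuole instead: petunia PH5 and *Arabidopsis* AHA10 belong to it, and PH5 together with the related PH1 makes petal vacuoles strongly acid. The V-ATPase is a rotary machine of many subunits with an ATP-splitting V1 sector on the cytosolic face and a proton-conducting Vo sector in the membrane. The vacuolar pyrophosphatase (V-PPase) is a single protein that does the same work with pyrophosphate. In citrus juice sacs these pumps are known for the acid vacuole, which traps citrate.

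The study gave the name PH8 to Cs1g16150, a gene of the P-type family that holds petunia PH5. In the table it is annotated as plasma membrane-type ATPase 10. The pair of primers that the study designed to measure this gene by quantitative PCR is shown because PH8 is the member with the widest variety difference. Both are written 5′ to 3′ in lower case, with no capitals because no position in them was singled out. The quantitative PCR values were not used here.
PH8 forward: ccgtgaaggaaggaatgatttgg
PH8 reverse: ccatgacaatggattccaca

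The plasma membrane-type ATPases as a class were more abundant in TBO than in BTSO at every storage day. Levels are given as FPKM (fragments scaled by the length of the transcript and the size of the library), which corrects for length, so that genes can be set side by side. From 0 to 90 DAS, the summed level of the 7 genes was 66.9 ± 17.3, 83.1 ± 0.701, 78.0 ± 6.06, 80.6 ± 5.17 and 83.7 ± 15.7 FPKM in TBO at the 5 storage days (SD, n = 3 at each day). In BTSO it was 38.1 ± 3.17, 25.7 ± 4.27, 28.1 ± 5.01, 33.7 ± 4.20 and 40.5 ± 6.90 FPKM (SD, n = 3 at each day). The sums did not overlap at any day, since the 15 TBO libraries lay between 56.0 and 101 FPKM and the 15 BTSO libraries between 21.0 and 46.3 FPKM.

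The 2 varieties differed in which gene led this class. PH8 made up a mean of 56.3%, 72.9%, 64.9%, 53.5% and 47.2% of the summed level in TBO at the 5 storage days, against 8.54%, 11.8%, 10.4%, 8.99% and 11.97% in BTSO. ATPase 11 (Cs5g04360), annotated as a pump of the plasma membrane, made up 32.6%, 15.97%, 21.5%, 20.5% and 19.1% in TBO, against 73.4%, 67.1%, 70.6%, 71.9% and 70.5% in BTSO. The share of the locus Cs6g03430, annotated as an ATPase 4-like pump, was 3.99%, 4.21%, 6.54%, 18.0% and 24.2% in TBO at the 5 days, against 4.69%, 5.83%, 6.43%, 6.47% and 8.50% in BTSO. With PH8 left out, the sum was 28.9, 22.5, 27.3, 37.3 and 44.1 FPKM in TBO and 34.8, 22.6, 25.0, 30.7 and 35.6 FPKM in BTSO. Without PH8 the libraries of the 2 varieties overlapped at 0, 15, 30 and 90 DAS, and at 60 DAS TBO (35.7 to 38.5 FPKM) lay above BTSO (26.4 to 33.6 FPKM).

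**Figure D1:**
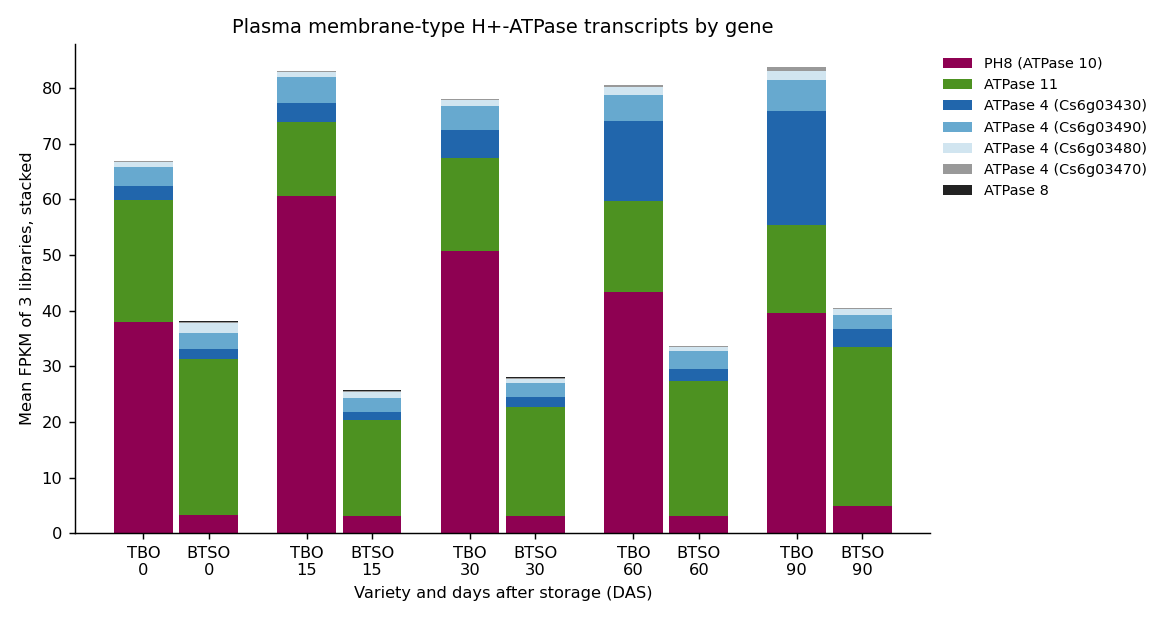
Stacked bars of the mean FPKM (y axis, from 0; 3 libraries per bar) of the 7 plasma membrane-type ATPase genes at each storage day (x axis), with the TBO bar left of the BTSO bar. PH8 is the largest block of each TBO bar (47.2% to 72.9% of the sum), ATPase 11 is the largest block of each BTSO bar (67.1% to 73.4%), and the block of the Cs6g03430 locus is wider at 60 and 90 DAS in TBO.

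PH8 had the widest difference between the varieties of all members. In TBO its level was 30.8, 52.01 and 31.2 FPKM at 0 DAS, 61.4, 59.3 and 60.9 at 15 DAS, 55.5, 50.7 and 45.8 at 30 DAS, 50.0, 36.8 and 43.1 at 60 DAS, then 41.0, 30.1 and 47.6 at 90 DAS. In BTSO it was 4.02, 3.20 and 2.57 FPKM at 0 DAS, 2.31, 3.92 and 2.95 at 15 DAS, 1.43, 4.38 and 3.33 at 30 DAS, 3.11, 3.41 and 2.58 at 60 DAS, then 3.98, 7.28 and 3.40 at 90 DAS. The lowest TBO library (30.1 FPKM) was above the highest BTSO library (7.28 FPKM), so the varieties were separated at every day.

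Differences were tested with limma on log2(FPKM + 1) over the 16578 genes that reached 1 FPKM in at least 3 libraries, with Benjamini-Hochberg adjustment over all of them. A gene was called at an adjusted p under 0.05, and a log2 difference on this scale understates the change of low genes. For PH8 the log2 difference, TBO minus BTSO, was 3.16, 3.94, 3.75, 3.45 and 2.82 at the 5 storage days (SE 0.25 each). The adjusted p was 1.25e-09, 2.31e-11, 4.69e-11, 1.39e-10 and 4.89e-09 at these days. Averaged over the days the difference was 3.42 (SE 0.11, adjusted p = 4.41e-18), which is 10.7-fold on this scale. PH8 was not called for a change over storage in either variety. Since the study picked PH8 on these samples, its variety difference is no independent evidence of direction. Its log2 change, 90 minus 0 DAS, was 0.08 in TBO (95% interval -0.45 to 0.60, adjusted p = 0.819) and 0.42 in BTSO (-0.10 to 0.95, adjusted p = 0.174). The intervals leave room for changes of moderate size, and the moderated F-test over all 5 days gave adjusted p = 0.0876 in TBO and 0.239 in BTSO.

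ATPase 11, the leading plasma membrane-type pump of BTSO, was the only tested member of its class with a lower average level in TBO that passed the test. In TBO it had 18.0, 28.1 and 19.2 FPKM at 0 DAS, 13.3, 14.8 and 11.8 at 15 DAS, 14.6, 20.5 and 15.1 at 30 DAS, 17.0, 17.6 and 14.8 at 60 DAS, then 15.2, 15.6 and 16.3 at 90 DAS. In BTSO it had 27.1, 31.7 and 25.2 FPKM at 0 DAS, 13.6, 19.7 and 18.6 at 15 DAS, 17.2, 20.8 and 20.9 at 30 DAS, 24.6, 27.4 and 20.8 at 60 DAS, then 22.3, 31.1 and 32.2 at 90 DAS. The varieties overlapped at 0, 15 and 30 DAS, and all TBO libraries were below all BTSO libraries at 60 and 90 DAS. The log2 difference, TBO minus BTSO, was -0.53 at 60 DAS (SE 0.17, adjusted p = 0.0106) and -0.80 at 90 DAS (adjusted p = 0.000306), and -0.46 on average (adjusted p = 6.44e-06). At 0 and 15 DAS it was -0.37 (adjusted p = 0.0731) and -0.35 (0.0842), and these differences were called after upper-quartile scaling (-0.48 and -0.54), after quantile normalization and on the estimated counts. The call at 60 DAS was lost without TBO replicate 3 (-0.46) or without BTSO replicate 2 (-0.44).

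The ATPase 4-like genes formed a group of neighbours on chromosome 6, and they are uncertain gene by gene because reads of near copies may have been split between them. Cs6g03480 is listed at chromosome 6, 3885125 to 3887739, and Cs6g03490 at 3895915 to 3908016, both on the plus strand, in a build that was not given in the sources used here. The locus Cs6g03430 merges 3 reference genes (Cs6g03430, Cs6g03440 and Cs6g03445), 1 of which is a hypothetical protein, and the table gives no coordinates for it. The P-type pumps they resemble move protons out of the cell in *Arabidopsis*.

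The Cs6g03430 locus rose during storage in TBO and reached the level of ATPase 11 there. The TBO libraries had 2.35, 2.44 and 2.87 FPKM at 0 DAS, 3.83, 3.00 and 3.68 at 15 DAS, 6.71, 3.62 and 4.95 at 30 DAS, 11.3, 15.2 and 16.6 at 60 DAS, then 14.5, 18.3 and 29.0 at 90 DAS. The BTSO libraries had 1.89, 1.76 and 1.69 FPKM at 0 DAS, 1.46, 1.67 and 1.29 at 15 DAS, 1.36, 2.06 and 2.02 at 30 DAS, 2.64, 1.93 and 1.94 at 60 DAS, then 4.09, 2.98 and 2.79 at 90 DAS. The TBO libraries lay above the BTSO libraries at each day, and the gap was widest at 60 and 90 DAS. The log2 difference, TBO minus BTSO, was 0.35, 0.86, 1.09, 2.27 and 2.29 at the 5 days (SE 0.19), and it was called at 15 to 90 DAS (adjusted p = 0.000735, 6.05e-05, 1.91e-09 and 1.93e-09) but not at 0 DAS (0.143). Between 90 and 0 DAS the locus rose by 2.55 in TBO on the log2 scale (SE 0.19, adjusted p = 3.56e-10, 5.86-fold on this scale). It rose by 0.61 in BTSO (adjusted p = 0.0119), and this call was lost without BTSO replicate 1 at 90 DAS (0.48, adjusted p = 0.0743) and after quantile normalization (0.41, adjusted p = 0.0830). The change of the variety difference between 0 and 90 DAS was 1.94 (SE 0.27, adjusted p = 5.72e-05).

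Cs6g03490 moved in the same direction with a smaller change. Its level in TBO was 3.89, 3.37 and 3.27 FPKM at 0 DAS, 4.11, 4.31 and 5.28 at 15 DAS, 4.57, 4.15 and 3.77 at 30 DAS, 5.15, 4.44 and 4.34 at 60 DAS, then 5.29, 5.49 and 6.03 at 90 DAS. Its level in BTSO was 3.30, 2.80 and 2.89 FPKM at 0 DAS, 2.76, 2.53 and 2.18 at 15 DAS, 1.74, 3.12 and 2.78 at 30 DAS, 3.54, 3.47 and 2.63 at 60 DAS, then 1.81, 3.02 and 2.58 at 90 DAS. The varieties overlapped at 0 DAS, and TBO lay above BTSO from 15 DAS on. The log2 difference was 0.17 at 0 DAS (adjusted p = 0.316), 0.67 at 15 DAS (0.000312), 0.56 at 30 DAS (0.00166), 0.43 at 60 DAS (0.013), then 0.94 at 90 DAS (5.69e-06), with an SE of 0.14. The gene rose by 0.55 in TBO between 90 and 0 DAS (adjusted p = 0.00177), whereas its change in BTSO was -0.22 (adjusted p = 0.205), and the change of the variety difference was 0.77 (adjusted p = 0.0108). The call at 60 DAS was lost without TBO replicate 1 (0.36) or BTSO replicate 3 (0.32), and the change in TBO was 0.33 after quantile normalization. The change in BTSO was called, and lower at 90 DAS, after quantile normalization (-0.40), with edgeR (-0.42) and with DESeq2 (-0.43).

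Cs6g03480 was a low gene whose direction turned with storage. In TBO it had 0.893, 0.854 and 0.982 FPKM at 0 DAS, 0.943, 0.804 and 1.198 at 15 DAS, 0.845, 1.26 and 1.22 at 30 DAS, 1.84, 1.23 and 1.39 at 60 DAS, then 1.71, 1.39 and 1.72 at 90 DAS. In BTSO it had 2.08, 1.09 and 2.07 FPKM at 0 DAS, 0.704, 1.16 and 1.60 at 15 DAS, 0.481, 0.848 and 0.523 at 30 DAS, 0.994, 0.680 and 0.747 at 60 DAS, then 0.546, 1.52 and 1.05 at 90 DAS. TBO lay below BTSO at 0 DAS and above it at 60 DAS, and the libraries overlapped at 15, 30 and 90 DAS. The log2 difference was -0.50 at 0 DAS (SE 0.17, adjusted p = 0.0195) and 0.46 at 60 DAS (adjusted p = 0.0304), and the change of the difference between 0 and 90 DAS was 0.88 (adjusted p = 0.0177). The change between 90 and 0 DAS was 0.45 in TBO (adjusted p = 0.0308) and -0.44 in BTSO (0.0389). These calls of Cs6g03480 rest on single libraries and on the scale. The difference at 0 DAS was no longer called without BTSO replicate 1 or 3 (-0.41 each), and the one at 60 DAS without TBO replicate 1 (0.35) or 3 (0.48) or BTSO replicate 2 (0.40) or 3 (0.43). The change of the difference was 0.79 (adjusted p = 0.0522) without BTSO replicate 1 at 0 DAS, 0.79 (0.0511) without replicate 3 at that day and 0.70 (0.0569) without BTSO replicate 1 at 90 DAS, and with a pseudocount of 0.1 it was 1.5. The change in TBO fell short of the threshold without TBO replicate 1 (0.44) or 2 (0.43) of 0 DAS or replicate 1 (0.42) or 3 (0.41) of 90 DAS, and the change in BTSO without replicate 1 (-0.34) or 3 (-0.35) of 0 DAS or replicate 1 (-0.25) or 3 (-0.45) of 90 DAS. The change in TBO was also lost after upper-quartile scaling (0.37) and quantile normalization (0.17), with edgeR (0.65, adjusted p = 0.104) and with DESeq2 (0.65, adjusted p = 0.0976), and the call at 60 DAS after upper-quartile scaling (0.41) and quantile normalization (0.36).

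The remaining plasma membrane-type members stayed under the filter on low values. Cs6g03470, another ATPase 4-like gene, ranged from 0.0457 to 0.791 FPKM over the 30 libraries. At 90 DAS it had 0.357, 0.589 and 0.791 FPKM in TBO, against 0.0884, 0.141 and 0.236 FPKM in BTSO. ATPase 8 (Cs4g01370, chromosome 4, 281418 to 285548, minus strand), a plasma membrane pump known from *Arabidopsis* pollen, ranged from 0 to 0.242 FPKM and was listed at 0 in 7 libraries. Thus 13 of the 15 members were tested, and neither of these was.

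**Figure D2:**
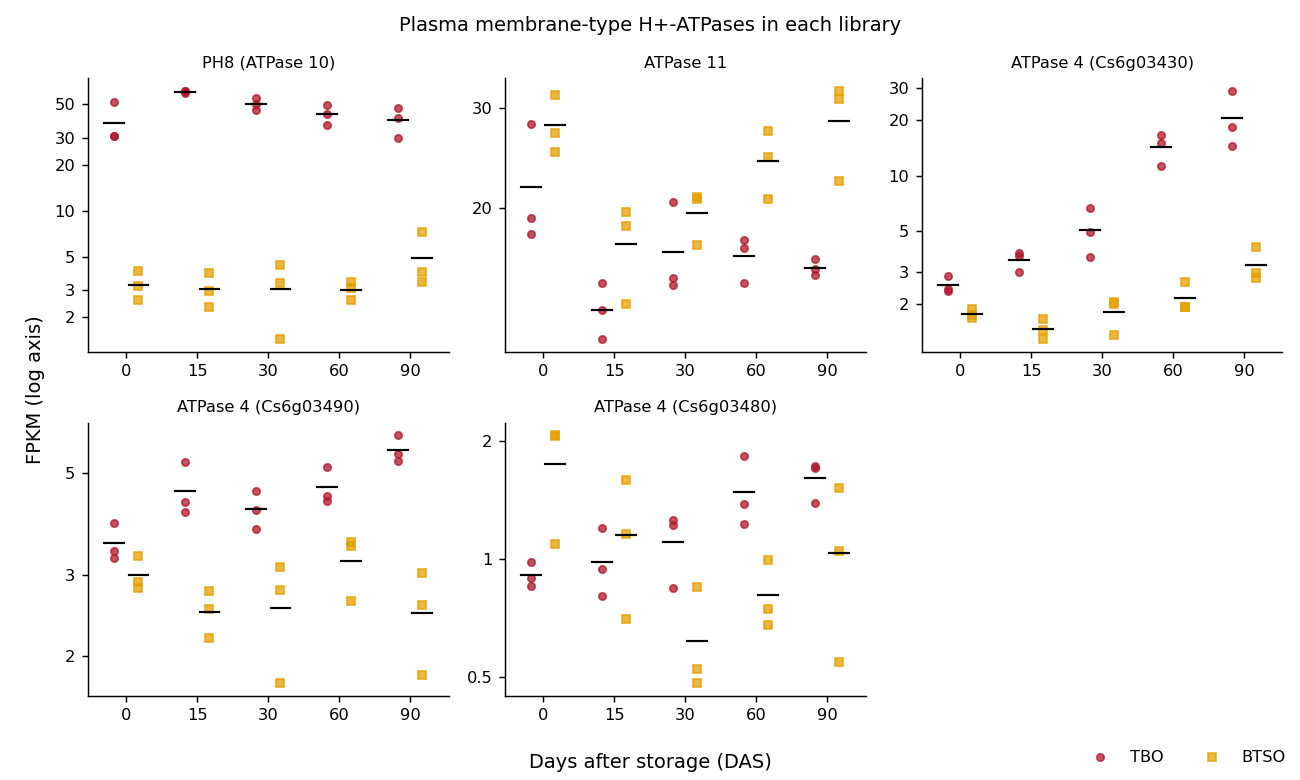
FPKM on a log axis (y) at each storage day (x) for the 5 tested plasma membrane-type ATPases, 1 panel per gene and 1 point per library, with TBO points left of BTSO points. PH8 points of TBO (30.1 to 61.4) lie above all BTSO points (1.43 to 7.28), ATPase 11 points of TBO lie below those of BTSO at 60 and 90 DAS, and the Cs6g03430 locus separates most at 60 and 90 DAS.

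The V-PPase (orange1.1t01399) was lower in TBO at 0 DAS and higher in TBO from 30 DAS on. The TBO libraries had 86.7, 87.7 and 81.5 FPKM at 0 DAS, 97.3, 93.3 and 92.6 at 15 DAS, 157, 145 and 155 at 30 DAS, 144, 138 and 140 at 60 DAS, then 127, 142 and 139 at 90 DAS. The BTSO libraries had 112, 105 and 108 FPKM at 0 DAS, 91.7, 89.5 and 89.0 at 15 DAS, 105, 102 and 122 at 30 DAS, 90.6, 116 and 106 at 60 DAS, then 112, 104 and 114 at 90 DAS. The libraries of the 2 varieties did not overlap at any day, with TBO below BTSO at 0 DAS and above it at the other 4 days. The log2 difference was -0.34 at 0 DAS (adjusted p = 0.00133), 0.07 at 15 DAS (0.51), 0.48 at 30 DAS (3.19e-05), 0.44 at 60 DAS (9.32e-05), then 0.30 at 90 DAS (0.00298), with an SE of 0.08. It rose by 0.67 in TBO between 90 and 0 DAS (adjusted p = 3.07e-07), its change in BTSO was 0.02 (adjusted p = 0.822), and the change of the variety difference was 0.64 (SE 0.11, adjusted p = 0.000502). The call at 90 DAS was lost after upper-quartile scaling (0.16) and with edgeR on the estimated counts (0.19), and the average over the days, 0.19 (adjusted p = 4.63e-05), was 0.06 after upper-quartile scaling (adjusted p = 0.141), 0.09 with edgeR and 0.10 with DESeq2.

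The V-type subunits together were less abundant in TBO at 0, 15 and 60 DAS. Their summed level was 657 ± 21.8, 633 ± 5.06, 572 ± 27.5, 571 ± 18.2 and 577 ± 13.5 FPKM in TBO at the 5 days (SD, n = 3 at each day). In BTSO it was 758 ± 35.4, 721 ± 27.1, 615 ± 45.1, 642 ± 21.7 and 599 ± 15.7 FPKM (SD, n = 3 at each day). The sums did not overlap at 0, 15 and 60 DAS and overlapped at 30 and 90 DAS. The V-PPase level was also taken as a ratio within each library, which a common factor per library cannot change but quantile normalization can. It was 13.0%, 14.9%, 26.7%, 24.7% and 23.6% of the V-type sum in TBO, against 14.3%, 12.5%, 17.9%, 16.3% and 18.4% in BTSO. This ratio overlapped at 0 DAS and at 15 to 90 DAS each TBO library was above all BTSO libraries of that day. The PH8 level was 5.75%, 9.56%, 8.84%, 7.61% and 6.84% of the V-type sum in TBO, against 0.432%, 0.427%, 0.486%, 0.472% and 0.816% in BTSO.

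Among the V1 subunits, G (Cs6g11650), which with subunit E builds the outer stalks that hold the ATP-splitting head still, was lower in TBO at every day. Its level in TBO was 104, 117 and 116 FPKM at 0 DAS, 99.7, 91.8 and 92.6 at 15 DAS, 75.7, 69.1 and 73.0 at 30 DAS, 74.3, 85.2 and 76.8 at 60 DAS, then 91.0, 68.96 and 75.8 at 90 DAS. Its level in BTSO was 135, 151 and 153 FPKM at 0 DAS, 130, 148 and 144 at 15 DAS, 111, 121 and 110 at 30 DAS, 125, 102 and 114 at 60 DAS, then 115, 103 and 112 at 90 DAS. All TBO libraries were below all BTSO libraries of the same day. The log2 difference was -0.38, -0.56, -0.64, -0.53 and -0.49 at the 5 days (SE 0.10; adjusted p = 0.00227, 3.24e-05, 6.75e-06, 7.71e-05 and 0.000163). Subunit G fell during storage in both varieties, by 0.52 in TBO (adjusted p = 7.62e-05) and by 0.41 in BTSO (0.00117), and the change of the variety difference was not called (-0.11, adjusted p = 0.662).

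Subunit B (Cs8g02310, B2), which forms the head together with the catalytic subunit A, was the most abundant member. In TBO it had 228, 222 and 222 FPKM at 0 DAS, 207, 245 and 222 at 15 DAS, 218, 224 and 203 at 30 DAS, 205, 209 and 207 at 60 DAS, then 213, 219 and 215 at 90 DAS. In BTSO it had 265, 262 and 261 FPKM at 0 DAS, 261, 245 and 262 at 15 DAS, 207, 224 and 206 at 30 DAS, 215, 236 and 236 at 60 DAS, then 231, 215 and 229 at 90 DAS. TBO lay below BTSO at 0, 15 and 60 DAS, at 15 DAS with a gap of under 1 FPKM, and the libraries overlapped at 30 and 90 DAS. The log2 difference was -0.23 at 0 DAS (adjusted p = 0.00906), -0.19 at 15 DAS (0.0235), 0.02 at 30 DAS, -0.14 at 60 DAS (0.0866), then -0.06 at 90 DAS. Neither call held after quantile normalization (-0.13 and -0.07), and the one at 15 DAS was also lost without TBO replicate 1 (-0.13) or 3 (-0.19) or BTSO replicate 1 (-0.18) or 3 (-0.17). Other scalings moved both further down, to -0.35 and -0.40 after upper-quartile scaling, and the one at 15 DAS to -0.36 with edgeR and -0.36 with DESeq2. The difference at 60 DAS was called lower after upper-quartile scaling (-0.22), with edgeR (-0.19) and with DESeq2 (-0.18). At 90 DAS it was called lower after upper-quartile scaling (-0.21). Between 90 and 0 DAS subunit B fell by 0.22 in BTSO (adjusted p = 0.0104), a change that was -0.07 after quantile normalization (adjusted p = 0.423), -0.36 with edgeR and -0.38 with DESeq2. Its change in TBO was -0.06 (adjusted p = 0.5), and it was called with edgeR (-0.23) and DESeq2 (-0.22).

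Subunit E (Cs5g02680), the other part of the outer stalks, was not called between the varieties at any day as deposited. The TBO libraries had 64.0, 78.3 and 77.4 FPKM at 0 DAS, 55.3, 59.5 and 56.5 at 15 DAS, 50.0, 51.6 and 47.5 at 30 DAS, 49.3, 53.4 and 54.1 at 60 DAS, then 51.8, 47.7 and 75.1 at 90 DAS. The BTSO libraries had 62.3, 65.9 and 63.5 FPKM at 0 DAS, 75.3, 55.0 and 68.8 at 15 DAS, 57.0, 78.6 and 60.2 at 30 DAS, 80.2, 64.1 and 55.8 at 60 DAS, then 56.3, 74.9 and 50.3 at 90 DAS. TBO lay below BTSO at 30 and 60 DAS without overlap, and the spread between BTSO libraries was wide at 15 to 90 DAS. The log2 difference was -0.20 at 15 DAS (adjusted p = 0.306), -0.37 at 30 DAS (0.055) and -0.33 at 60 DAS (0.0891). All 3 were called after upper-quartile scaling (-0.41, -0.47 and -0.41), with edgeR (-0.39, -0.47 and -0.40) and with DESeq2 (-0.39, -0.45 and -0.38).

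Subunit D, the central stalk that turns inside the head, was read from a locus that merges 2 reference genes (Cs4g02110 and Cs4g02120), 1 of them uncharacterized. Its level in TBO was 18.7, 22.1 and 18.7 FPKM at 0 DAS, 19.6, 17.8 and 16.8 at 15 DAS, 15.6, 15.97 and 14.9 at 30 DAS, 15.9, 16.7 and 14.8 at 60 DAS, then 18.7, 18.3 and 18.6 at 90 DAS. Its level in BTSO was 21.7, 24.9 and 24.1 FPKM at 0 DAS, 22.0, 19.3 and 18.4 at 15 DAS, 15.7, 18.2 and 15.8 at 30 DAS, 18.8, 19.7 and 16.03 at 60 DAS, then 18.5, 19.8 and 22.6 at 90 DAS. The varieties overlapped at every day. The log2 difference at 0 DAS was -0.24 (adjusted p = 0.0375), and this call was lost when TBO replicate 1 or 3 (-0.20 each) or BTSO replicate 2 (-0.20) or 3 (-0.23) was left out. At 15, 60 and 90 DAS the difference was -0.13, -0.19 and -0.12 and was not called. Each of these was called lower after upper-quartile scaling (-0.33, -0.26 and -0.26), after quantile normalization (-0.32, -0.27 and -0.27), with edgeR and with DESeq2. Its change in BTSO between 90 and 0 DAS, -0.21 (adjusted p = 0.0671), was also called under these alternatives. Its change in TBO, -0.09, was called after quantile normalization (-0.20), with edgeR (-0.26) and with DESeq2 (-0.26).

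Subunit H, which regulates ATP splitting in yeast, was read from a locus of 3 reference genes (Cs7g14490, Cs7g14500 and Cs7g14530). In TBO it had 31.4, 35.0 and 31.1 FPKM at 0 DAS, 29.9, 31.8 and 31.5 at 15 DAS, 26.2, 29.3 and 25.5 at 30 DAS, 23.5, 27.3 and 23.1 at 60 DAS, then 20.9, 21.9 and 19.5 at 90 DAS. In BTSO it had 29.5, 35.9 and 30.6 FPKM at 0 DAS, 33.4, 32.6 and 30.2 at 15 DAS, 25.7, 32.9 and 28.8 at 30 DAS, 28.7, 30.7 and 26.4 at 60 DAS, then 22.3, 25.0 and 27.2 at 90 DAS. Levels were lower at 90 than at 0 DAS in every library of both varieties, and the varieties were separated at 90 DAS only. Subunit H fell by 0.62 in TBO (adjusted p = 1.1e-05) and by 0.35 in BTSO (adjusted p = 0.00446) on the log2 scale, and the change of the variety difference was -0.27 (adjusted p = 0.221; -0.36 after quantile normalization, where it was called). The variety difference at 90 DAS was -0.24 (adjusted p = 0.0391), and it was no longer called without TBO replicate 1 (-0.25) or 3 (-0.20) or BTSO replicate 2 (-0.24) or 3 (-0.18). It was wider after upper-quartile scaling (-0.38), after quantile normalization (-0.40) and with edgeR (-0.37), and the difference at 60 DAS (-0.21, adjusted p = 0.0787) was called under these 3 as well (-0.28, -0.29 and -0.26).

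In the Vo sector, the members were subunit a3 (Cs8g08330), the part that lines the path of the protons and sits in the vacuole membrane in *Arabidopsis*, and subunit c''1 (Cs4g20460), a part of the rotating ring. Subunit a3 had 142, 134 and 114 FPKM at 0 DAS, 149, 132 and 147 at 15 DAS, 156, 134 and 124 at 30 DAS, 128, 136 and 147 at 60 DAS, then 132, 137 and 137 at 90 DAS in TBO. The BTSO libraries had 140, 176 and 125 FPKM at 0 DAS, 165, 133 and 125 at 15 DAS, 109, 126 and 128 at 30 DAS, 126, 137 and 117 at 60 DAS, then 91.7, 103 and 109 at 90 DAS. The varieties overlapped until 60 DAS, and at 90 DAS all TBO libraries were above all BTSO libraries. The log2 difference at 90 DAS was 0.42 (adjusted p = 0.006; 0.27 after upper-quartile scaling). Subunit a3 fell by 0.52 in BTSO between 90 and 0 DAS (adjusted p = 0.0012), its change in TBO was 0.06 (adjusted p = 0.693), and the change of the variety difference was 0.58 (SE 0.17, adjusted p = 0.0283). This last call was lost without TBO replicate 3 at 0 DAS (0.49, adjusted p = 0.0881), TBO replicate 3 at 90 DAS (0.57, 0.0578), BTSO replicate 2 at 0 DAS (0.45, 0.0947) or BTSO replicate 1 at 90 DAS (0.51, 0.0701).

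Subunit c''1 had 62.5, 72.9 and 58.4 FPKM at 0 DAS, 67.9, 60.2 and 67.7 at 15 DAS, 54.5, 56.1 and 54.9 at 30 DAS, 55.3, 59.1 and 52.02 at 60 DAS, then 51.7, 49.9 and 47.6 at 90 DAS in TBO. Its level in BTSO was 82.0, 83.5 and 82.3 FPKM at 0 DAS, 64.2, 65.9 and 64.4 at 15 DAS, 55.5, 65.7 and 52.03 at 30 DAS, 59.7, 65.1 and 50.8 at 60 DAS, then 46.5, 61.5 and 61.8 at 90 DAS. The varieties were separated at 0 DAS only, with TBO lower. The log2 difference at 0 DAS was -0.36 (adjusted p = 0.00814), which without TBO replicate 3 was -0.29 (adjusted p = 0.0551). At 90 DAS the difference was -0.17 and was not called as deposited (adjusted p = 0.177). It was called lower there after upper-quartile scaling (-0.32), after quantile normalization (-0.25), with edgeR (-0.30) and with DESeq2 (-0.28). Subunit c''1 fell during storage in both varieties, by 0.37 in TBO (adjusted p = 0.00539) and by 0.55 in BTSO (adjusted p = 0.000178).

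**Figure D3:**
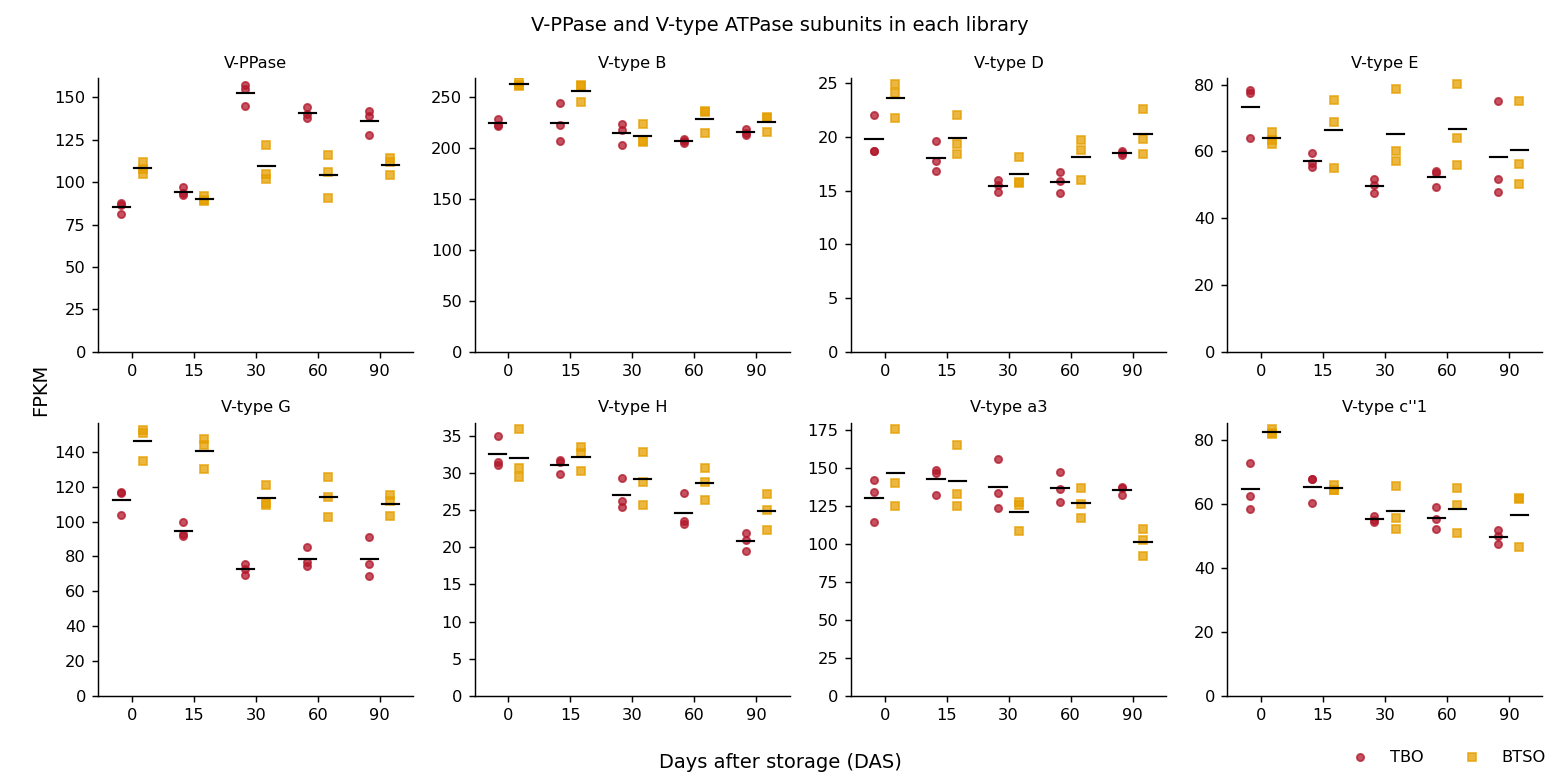
FPKM from 0 (y) at each storage day (x) for the V-PPase and the 7 V-type ATPase subunits, 1 panel per gene and 1 point per library, with TBO left of BTSO and bars for the mean of 3 libraries. V-PPase points of TBO lie below BTSO at 0 DAS (81.5 to 87.7) and above it at 30 DAS (145 to 157), and subunit G is lower in TBO at each day.

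Counted over all members, the varieties differed at each day in a share of members near that of all tested genes. At 0 DAS 7 of the 13 tested members were called, 1 higher and 6 lower in TBO, against 47.1% of all tested genes (27.2% higher, 20% lower). At 15 DAS 5 were called, 3 higher and 2 lower, against 51.5% of all genes (34.2% higher, 17.3% lower). At 30 DAS 5 were called, 4 higher and 1 lower, against 52.6% of all genes (30.3% higher, 22.3% lower). At 60 DAS 7 were called, 5 higher and 2 lower, against 51% (28.1% higher, 22.8% lower). At 90 DAS 8 were called, 5 higher and 3 lower, against 52.8% (32.3% higher, 20.4% lower). For the average over the days, 10 of 13 members were called, 4 higher and 6 lower, against 77.7% of all genes (45.4% higher, 32.3% lower). Libraries of the varieties did not overlap for 7, 6, 6, 9 and 8 of the 13 members at the 5 days, against 55.5%, 60.9%, 57.1%, 57.6% and 59.8% of all genes. A log2 difference over 1 in called genes was found for 1, 1, 2, 2 and 2 members at the 5 days (7.8%, 8.87%, 10.7%, 11.3% and 10.8% of all genes), and these were PH8 at each day and the Cs6g03430 locus from 30 DAS on. For the average over the days the same 2 members passed this limit, against 8.04% of all genes.

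By class, the averages went apart. Of the 5 tested plasma membrane-type ATPases 3 were higher and 1 lower in TBO on average, with a median log2 difference of 0.55. Of the 7 V-type subunits none was higher and 5 were lower (B, D, G, H and c''1), with a median of -0.13. Over all tested genes 45.4% were called higher and 32.3% lower on average, and the median was 0.08. Subunit E, at -0.16 on average (adjusted p = 0.0513), was called lower after upper-quartile scaling (-0.28), after quantile normalization (-0.20), with edgeR (-0.26) and with DESeq2 (-0.25), and subunit a3, at 0.12 (adjusted p = 0.0582), was called higher after quantile normalization (0.16). The average differences of the V-type subunits other than G were small: -0.12 for B (adjusted p = 0.00103), -0.15 for D (0.0019), -0.13 for c''1 (0.0161) and -0.11 for H (0.02). After upper-quartile scaling these 4 were -0.25, -0.28, -0.26 and -0.24, and after quantile normalization subunit B was at -0.02 and was not called (adjusted p = 0.501).

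The split into higher and lower depended on the scaling of the libraries. At 15 DAS the median over all genes was 0.13 as deposited and -0.03 after upper-quartile scaling, and 9 members were then called, 3 higher and 6 lower, with the V-type subunits at 5 lower in place of 2. At 60 DAS the split was 4 up and 6 down in TBO under upper-quartile scaling, and 5 up and 6 down with either edgeR or DESeq2. At 90 DAS it was 4 up and 6 down under upper-quartile scaling, with the V-PPase no longer called and subunits B, D and c''1 called lower, 4 up and 5 down with edgeR, and 5 up and 5 down with quantile normalization or DESeq2. At 0 DAS it was 1 up and 8 down under upper-quartile scaling, and at 30 DAS 4 up and 3 down. The counts under other scalings are of members alone, without the share of all genes called under the same scaling. They do not show whether members moved more than all genes did. The directions of PH8, of the Cs6g03430 locus and of subunit G were the same under every scaling.

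**Figure D4:**
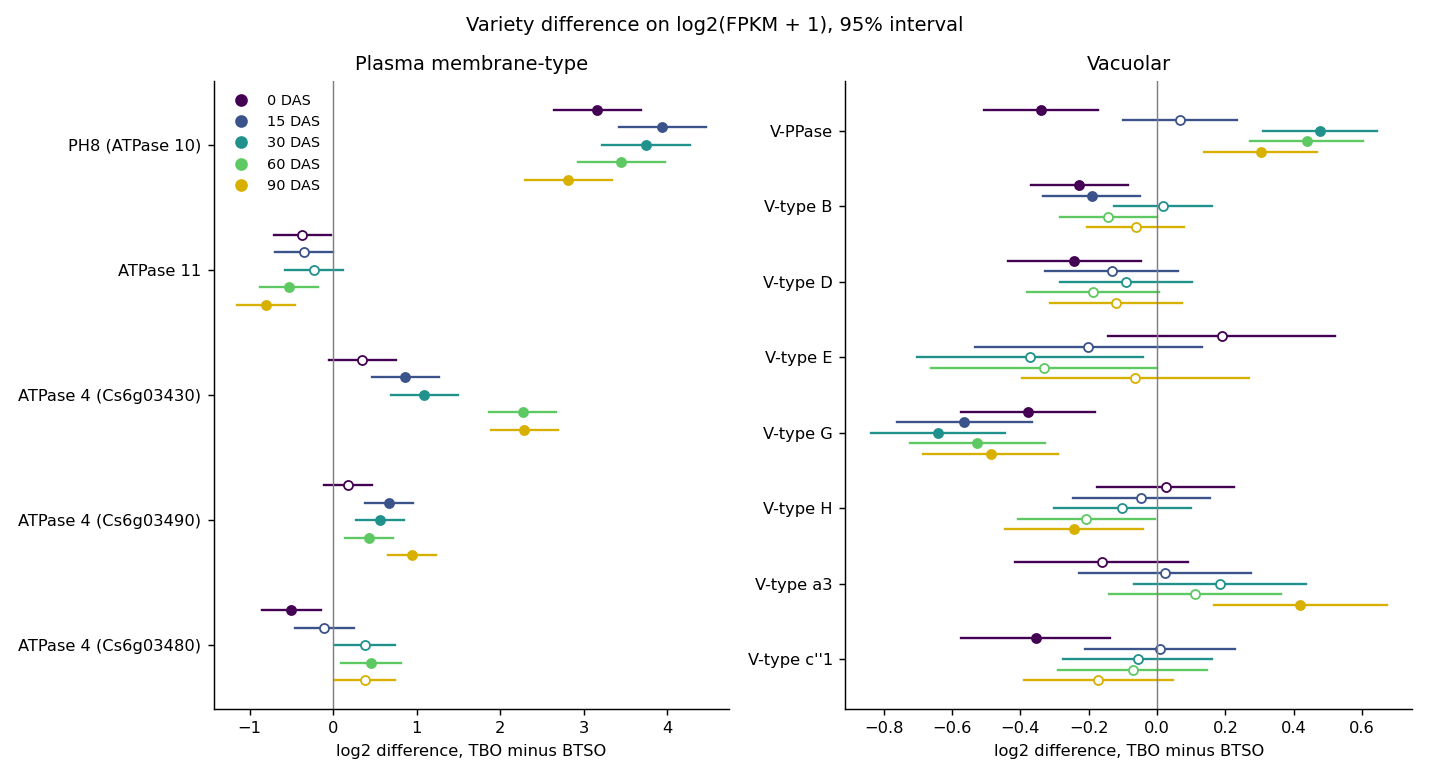
Log2 difference, TBO minus BTSO, of log2(FPKM + 1) at each storage day for the 13 tested members, with 95% intervals from limma and filled points at an adjusted p under 0.05. PH8 lies between 2.82 and 3.94, the Cs6g03430 locus moves away from 0 with storage (0.35 at 0 DAS, 2.29 at 90 DAS), and subunit G stays below 0 at each day.

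Storage itself changed members in both varieties. Between 90 and 0 DAS 8 of 13 members were called in TBO (4 higher and 4 lower at 90 DAS), where 55% of all genes were called, 37% higher and 18.1% lower. In BTSO 7 were called (1 higher and 6 lower), where 48.9% of all genes were called, 32.2% higher and 16.7% lower. A called change over 1 on the log2 scale was found for 1 member in TBO, the Cs6g03430 locus (11% of all genes), and for 0 in BTSO (7.29%), where limma gave 7 smaller calls. The median over all genes was 0.16 in TBO and 0.13 in BTSO as deposited, and -0.0035 and 0.01 after quantile normalization. In TBO the members that rose were the Cs6g03430 locus, the V-PPase, Cs6g03490 and, as deposited but in no other scaling, Cs6g03480, and those that fell were subunits H, G and c''1 and ATPase 11. The change of ATPase 11 in TBO, -0.42 (adjusted p = 0.0353), rested on single libraries: without TBO replicate 2 of 0 DAS it was -0.23 (adjusted p = 0.259), and without replicate 1, 2 or 3 of 90 DAS it was -0.40, -0.42 or -0.45 and was not called. In BTSO the Cs6g03430 locus was the 1 member that rose, a call that was lost without replicate 1 of 90 DAS (0.48), and those that fell were subunits B, G, H, a3 and c''1 and Cs6g03480. Of the 7 V-type subunits, 3 fell and none rose in TBO, and 5 fell and none rose in BTSO, with a median log2 change of -0.35 in each variety. These counts depended on the scaling: in TBO 4 V-type subunits fell after upper-quartile scaling, 4 after quantile normalization, 6 with edgeR and 6 with DESeq2, and in BTSO the counts were 6, 5, 6 and 6. Over all members the split in TBO was 3 up and 5 down after upper-quartile scaling or quantile normalization and 3 up and 7 down with edgeR or DESeq2. In BTSO it was 1 up and 7 down after upper-quartile scaling, 0 up and 7 down after quantile normalization and 1 up and 8 down with edgeR or DESeq2. These splits too are of members alone, without the share of all genes under the same scaling. A change at any of the storage days, by the moderated F-test, was called for 9 of 13 members in TBO (68.8% of all genes) and 10 in BTSO (72.4%).

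The change over storage differed between the varieties for 5 of the 13 members, against 12.4% of all tested genes (7.04% upward, 5.39% downward), and all 5 moved up in TBO relative to BTSO. For 1 of them, the Cs6g03430 locus, this change was over 1, against 4.5% of all genes. They were the Cs6g03430 locus (1.94), Cs6g03480 (0.88), Cs6g03490 (0.77), the V-PPase (0.64) and subunit a3 (0.58), with the adjusted p-values given above. Without BTSO replicate 1 of 90 DAS, 3 members were called. PH8 was not among them, since its log2 change was -0.35 (95% interval -1.09 to 0.39, adjusted p = 0.594).

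**Figure D5:**
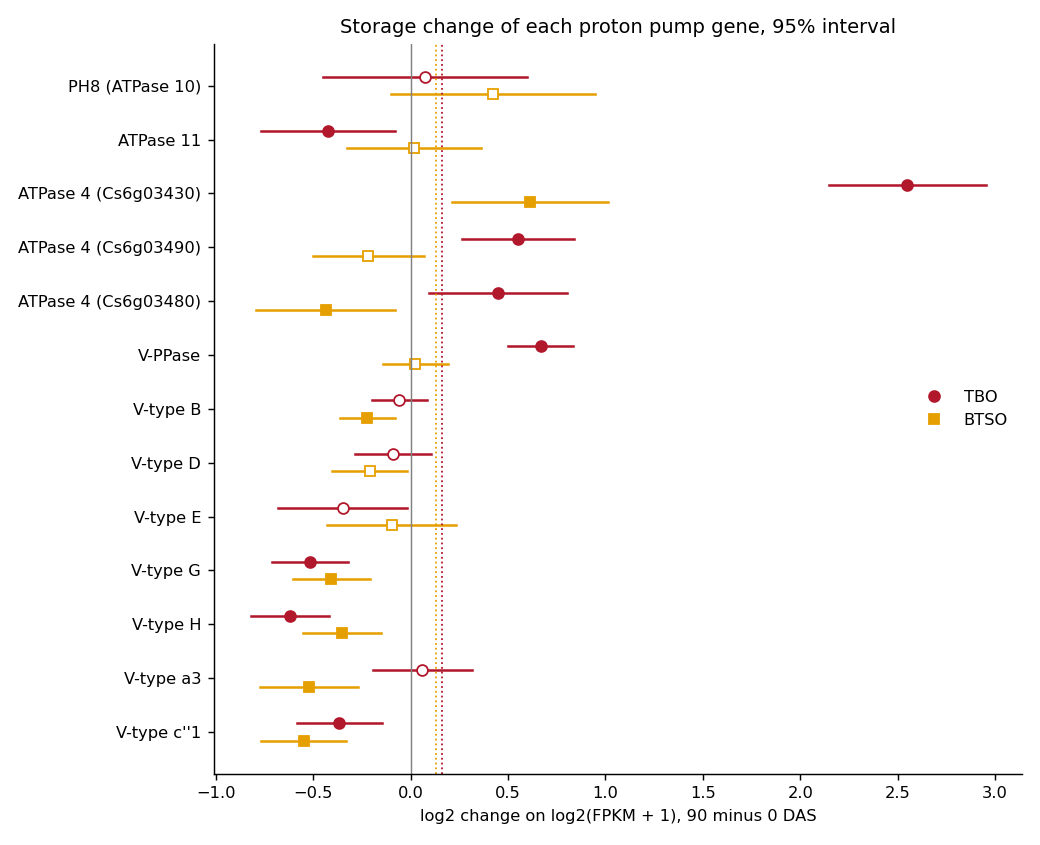
Log2 change, 90 minus 0 DAS, of the 13 tested members in TBO and BTSO, with 95% intervals from limma, filled points at an adjusted p under 0.05 and dotted lines at the medians over all genes (0.16 in TBO, 0.13 in BTSO). The Cs6g03430 locus (2.55 in TBO, 0.61 in BTSO) and the V-PPase (0.67 in TBO, 0.02 in BTSO) lie further up in TBO, and the V-type subunits lie mostly below 0.

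The V-ATPase has further genes that the annotation text did not bring among the members. A list of them was drawn up after the table had been seen, from the KEGG orthology entries in the table, and 2 of its genes carry the description of a receptor kinase instead. Of 21 genes listed 15 were tested, and on average 12 were called, 3 higher and 9 lower in TBO, with a median log2 difference of -0.25, where 77.7% of all genes were called (45.4% higher, 32.3% lower). The most abundant, ring subunit c (Cs3g25710), had mean levels of 315, 249, 244, 231 and 202 FPKM in TBO at the 5 days, against 494, 381, 348, 315 and 280 FPKM in BTSO, with an average difference of -0.53 (adjusted p = 7.26e-10). The catalytic subunit A (Cs1g10270) had 64.6 FPKM in TBO at 0 DAS, against 93.8 FPKM in BTSO (log2 difference -0.53, adjusted p = 0.000148). The direction was not shared by all, since another subunit a gene (Cs8g17300) was higher in TBO at every day (average 0.60, adjusted p = 7.78e-11). Between 90 and 0 DAS 9 of the 15 were called in TBO (2 higher, 7 lower; 55% of all genes) and 10 in BTSO (1 higher, 9 lower; 48.9% of all genes).

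Genes that work beside the pumps were found by words of their annotation. The 1 magnesium-transporting P-type ATPase in the table (Cs1g20080), the annotation that the petunia vacuolar pump PH1 carries, had means of 6.75, 8.66, 11.5, 13.7 and 11.9 FPKM in TBO, against 0.225, 0.232, 0.359, 0.492 and 0.588 FPKM in BTSO. Its log2 difference was 2.66, 2.96, 3.21, 3.30 and 3.02 at the 5 days, 3.03 on average (adjusted p = 4.67e-21). Its means in BTSO were under 1 FPKM, where this scale understates a difference, so it is not ranked against PH8 here. The gene rose by 0.73 in TBO between 90 and 0 DAS (adjusted p = 0.000362). PH4 (Cs9g03070), a MYB factor of the kind that regulates petal acidity in petunia, was higher in TBO by 3.27, 3.41, 2.99, 3.27 and 2.75. The study picked PH4 on these same samples, so it is no independent evidence of direction. The tonoplast dicarboxylate transporter (Cs2g02120), which carries malate and related acids across the vacuole membrane in *Arabidopsis*, went the other way, with 58.9, 52.5, 86.3, 70.5 and 65.0 FPKM in TBO against 182, 146, 189, 204 and 239 FPKM in BTSO and an average difference of -1.5 (adjusted p = 4.12e-13). Of the 4 tested 14-3-3 proteins, which switch on plasma membrane H+-ATPases, 3 were called on average and all 3 were lower in TBO, where 77.7% of all genes were called and 32.3% were lower. Of 9 calcium-transporting ATPases 5 were higher and 3 lower, of 5 sodium/hydrogen exchangers 3 were higher and 1 lower, against the same 77.7% of all genes called, and the 1 tested vacuolar cation/proton exchanger was higher (0.63, adjusted p = 3.01e-12). The soluble inorganic pyrophosphatase (Cs8g03160), annotated as chloroplastic, was not called (0.16, adjusted p = 0.185).

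The estimated count totals were 51894138 to 75833189 per library, and correlations across genes between replicates were 0.983 to 0.992. Such a correlation can miss a library that stands apart in a few genes. At 0 DAS TBO replicate 2 had a plasma membrane-type sum of 86.9 FPKM, against 56.0 and 57.7 FPKM in replicates 1 and 3. No defining marker list for juice sac cells was used. Markers of other tissues were at low but measurable levels: the 6 chlorophyll a-b binding protein genes summed to 14.8 to 32.4 FPKM in TBO and 14.6 to 40.2 FPKM in BTSO, the 5 seed genes to 12.2 to 23.2 FPKM in TBO and 17.4 to 27.8 FPKM in BTSO, and the 7 laccase genes of lignified tissue to 3.62 to 22.3 FPKM in TBO and 5.24 to 67.8 FPKM in BTSO. None of these genes was at 0 in all libraries. Only 3 of the 5 seed genes and 3 of the 7 laccase genes reached 1 FPKM in any library. The seed and laccase sums each rest mostly on 1 gene, an oleosin (orange1.1t03751, mean 17.6 FPKM) and a laccase-7-like gene (Cs6g07400, mean 17.9 FPKM). The mean laccase sum was 4.84, 5.67, 10.5, 20.5 and 15.4 FPKM in TBO at the 5 days, against 6.59, 18.6, 44.9, 50.3 and 17.8 FPKM in BTSO, and the libraries did not overlap at 15, 30 and 60 DAS. In TBO this sum was thus higher at 60 and 90 DAS than at 0 DAS, as was the Cs6g03430 locus. In BTSO the laccase sum was 44.9 and 50.3 FPKM at 30 and 60 DAS, against 6.59 FPKM at 0 DAS. The Cs6g03430 locus had means of 1.82 and 2.17 FPKM in BTSO at 30 and 60 DAS, against 1.78 FPKM at 0 DAS. The mean chlorophyll a-b binding sum was 17.9 FPKM at 90 DAS against 29.9 FPKM at 0 DAS in TBO, and 17.1 against 35.7 FPKM in BTSO. Some V-type subunits were called lower at 90 DAS as well, namely G, H and c''1 in TBO and B, G, H, a3 and c''1 in BTSO. The part of such tissue in the differences of the pumps was not tested.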

How the data were processed

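RNA-seq was made by the study from juice sacs of TBO and BTSO at 5 storage days, 3 libraries each. Reads from rRNA or of low quality were dropped by the authors, who then assembled and merged transcripts and deposited the FPKM of each gene in each library. Their processing notes name Bowtie 0.12.2, HISAT2 2.0 and StringTie 1.3.0. The strand setting and the genome build were not given in the sources used here, since the build named in the labels is of mouse. The deposited table also holds an estimated count per gene and library, listed by the authors as whole numbers, which are not read numbers, so precision was judged from the spread between libraries alone.

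Members were found by annotation text. Members and lists were chosen with earlier results of these data known. The tests ran in R 4.3.3 with limma 3.58.1, on log2(FPKM + 1) of the 16578 genes that reached 1 FPKM in 3 libraries or more. The model held a mean for each of the 10 groups, used limma's variance trend and took no covariate. It gave TBO minus BTSO at each day and on average, 90 minus 0 DAS in each variety, the moderated F-test over storage, and the change of the variety difference. Described with full values were PH8, the most expressed member of each class, members past the threshold and a log2 difference of 1 at 3 days or more, the members with the largest storage changes, members whose difference changed, and those under the filter; the other tested members were added after their values had been seen. Primer sequences came from the study's primer list.

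Alternatives were a pseudocount of 0.1, no filter, a mean FPKM of at least 5, upper-quartile scaling, quantile normalization, edgeR 4.0.16 (quasi-likelihood test) and DESeq2 1.42.0 on the estimated counts, the 6 libraries of a day alone, a replicate block, each library left out in turn, and the limits used by the study (an unadjusted p under 0.05 with a log2 difference over 1). The test was checked on simulated data. FPKM is relative to each library's total, so a shift in a few abundant genes moves all others, which is why other scalings were tried. Python 3.11.15 with numpy 2.4.6, pandas 2.3.3 and matplotlib 3.10.9 was used for tables and plots.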

Additional observations from a re-analysis of the deposited data

Results flagged for a closer look

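For 5 members the change over storage differed between TBO and BTSO in the test of that difference (limma, adjusted p under 0.05), all toward TBO. The Cs6g03430 locus had the largest change of the variety difference, 1.94 on the log2 scale. It was 0.88 for Cs6g03480, a gene near 1 FPKM, and 0.77 for Cs6g03490, its neighbour on chromosome 6. It was 0.64 for the V-PPase (orange1.1t01399) and 0.58 for subunit a3 (Cs8g08330).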

How the results depend on the processing

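No call turned its direction under any alternative. At 15 DAS 5 members were called as reported and 9 after upper-quartile scaling, 9 with edgeR and 9 with DESeq2. At 60 DAS 7 were called as reported and 11 with edgeR and 11 with DESeq2. With a filter at a mean FPKM of 5, 11 members were tested and 3, in place of 5, were called for the change of the variety difference, because fewer members were tested. Under the limits used by the study 1, 1, 2, 2 and 2 members were called at the 5 days in turn. These counts are of members alone, without the share of all genes under the same setting, and the cause of the other shifts was not tested. When each library was left out in turn, the counts ranged from 5 to 8, 4 to 5, 5 to 6, 5 to 8 and 7 to 9 at the 5 days, from 10 to 12 for the average, from 6 to 8 for 90 against 0 DAS in TBO, from 5 to 7 for the same in BTSO, from 3 to 5 for the change of the variety difference, and from 7 to 10 in TBO and 8 to 10 in BTSO for any storage change. The sources do not say whether replicate numbers paired the samples. Of 15 pairs of libraries with the same number, deviations correlated at -0.0743 to 0.175, with 2 over 0.1. Libraries with different numbers were not set beside them, so these values cannot settle the question. With a replicate block, 8, 6, 5, 8 and 8 members were called at the 5 days, 10 on average, 8 in TBO and 7 in BTSO for 90 against 0 DAS, 5 for the change of the variety difference, and 9 in TBO and 10 in BTSO for any storage change. With 3 libraries per group, small differences of abundant subunits and any difference of members near 1 FPKM are the least certain.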
